A study of Mus musculus with 6 samples.

Results

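Metallothioneins are small cysteine-rich proteins that bind zinc and copper. The members described here, selected by gene symbol, are all probe sets (sets of short probes for a transcript) whose single gene symbol in the platform annotation is Mt1, Mt2 or Mt3. They number 4 of the 45101 probe sets on the array and cover 3 genes, with 2 probe sets for Mt1 and 1 each for Mt2 and Mt3. The genes were chosen from earlier results of these data, with their difference between Dap12-ko and Dap12-het arrays known, so that difference is given as a description. Each of 6 one-colour Affymetrix arrays carried total RNA from mouse brain at 1 month of age. There were 3 arrays from Dap12-ko mice, which lack Dap12, named 67, 68 and Ko1. The other 3 were from Dap12-het mice, named 75, 76 and 81, which keep 1 working copy of the gene, so the comparison holds no mouse with both copies intact. Dap12 is the adaptor protein, encoded by Tyrobp, through which Trem2 and related receptors of microglia signal. The study's design text describes the dissected tissue as midbrain, with diencephalon and basal ganglia. The labels do not say whether each array was a separate mouse, so a p-value below speaks only of the spread among these 6 arrays, which may be technical.

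Mt1 and Mt2 are made in most tissues and, in the brain, mainly in astrocytes, the lining of the ventricles and vessels. Their transcription is switched on by zinc through the transcription factor Mtf1, which binds metal response elements, and by glucocorticoids, oxidative stress and interleukin-6 acting through Stat3. Mt3 is the brain metallothionein, found in neurons and astrocytes, was first described as a growth inhibitory factor, and is little induced by metals. Mt4 belongs to stratified epithelia.

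The 4 mouse metallothionein genes lie side by side on chromosome 8, in the order Mt4, Mt3, Mt2 and Mt1, within 43124 bases of the RefSeq annotation of GRCm38.p6. The 250 bases before the RefSeq start sites of the measured members are shown because the 3 neighbours differed in how they stood between the groups while sharing this cluster. Capitals mark the core of the metal response element, searched on both strands with the letters TGCACNC and, in a second form of the core, TGCGCNC, in the plus-strand sequence at chr8:94178839-94179088 for Mt1, chr8:94172368-94172617 for Mt2 and chr8:94152357-94152606 for Mt3, read 5′ to 3′.
Mt1: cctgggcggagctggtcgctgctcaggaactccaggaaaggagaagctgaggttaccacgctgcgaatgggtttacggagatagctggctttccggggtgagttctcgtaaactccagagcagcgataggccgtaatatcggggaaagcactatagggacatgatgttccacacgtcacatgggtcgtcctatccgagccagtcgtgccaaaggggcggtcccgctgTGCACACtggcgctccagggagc
Mt2: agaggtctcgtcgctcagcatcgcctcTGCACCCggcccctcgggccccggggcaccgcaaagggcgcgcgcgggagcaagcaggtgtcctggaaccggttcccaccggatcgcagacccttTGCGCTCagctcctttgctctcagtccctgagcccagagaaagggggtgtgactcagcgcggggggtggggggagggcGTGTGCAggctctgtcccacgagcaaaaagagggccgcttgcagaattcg
Mt3: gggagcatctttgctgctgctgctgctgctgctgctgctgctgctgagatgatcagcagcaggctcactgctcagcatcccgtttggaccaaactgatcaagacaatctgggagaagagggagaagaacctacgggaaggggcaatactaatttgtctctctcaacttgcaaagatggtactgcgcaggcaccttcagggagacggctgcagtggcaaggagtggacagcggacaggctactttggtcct
In the 250 bases shown, searched first, the core matched 3 times at Mt2, 1 time at Mt1 and 0 times at Mt3, and 21.4% of all windows of that length held at least 1 match and 1.26% at least 3. After these matches had been seen the search was widened to the 300 bases that the RefSeq table gives, made of these 250 and the 50 from the start site on. There the core matched 4 times at Mt2, 3 times at Mt1 and 1 time at Mt3. The added matches at Mt1 began 3 and 21 bases into the 50. The match at Mt3 began 28 bases into the 50, so no capitals stand in its printed stretch. Of 32851 mouse windows of the same length in the RefSeq table, 25.7% held at least 1 match, 1.97% at least 3 and 0.517% at least 4. Mt2 also held 1 match to the antioxidant response element core TGACNNNGC, present in 12.4% of windows. Also searched on both strands were the TATA box as TATAAA (held by 13.6% of windows), the E-box as CACGTG (7.15%) and a Stat-type site as TTCNNNGAA (8.3%), and 0 matches to these fell in the 3 windows. The Mt3 stretch opens with 11 uninterrupted CTG units, a run that 0.0152% of windows equalled or exceeded and that was searched for after the sequence had been seen. RefSeq places the Mt1 gene's first base at 94178883, before the start site used for its window, so most of the Mt1 stretch lies inside the annotated gene. The Mt2 and Mt3 stretches end just before the first base of their genes. The Mt1 counts, the 0 matches included, therefore come from an unlike window and do not describe the bases before that gene's first base. A match is only a match of letters.

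Mt3 gave less signal in the Dap12-ko samples than in the Dap12-het samples. The probe set 1420575_at read 1030, 1201 and 817.3 on the knockout arrays (67, 68, Ko1) and 2844, 2675 and 2598 on the heterozygous ones (75, 76, 81), in units of the deposited linear signal. The highest knockout array was therefore below the lowest heterozygous array, and the groups did not overlap. Means were 1020 ± 192 and 2710 ± 126 (SD, n = 3), a ratio of heterozygous to knockout of 2.66. On the log2(signal + 16) scale the difference, knockout minus heterozygous, was -1.42 ± 0.18 (SE of the limma fit). Ko1 was the lowest of the 6 arrays.

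Mt1, by its bright probe set 1422557_s_at, was not lower on any knockout array than on the lowest heterozygous array. It read 4229, 4403 and 3280 on the knockout arrays (67, 68, Ko1) and 3434, 3007 and 3316 on the heterozygous ones (75, 76, 81). Knockout 67 and 68 were above every heterozygous array, while Ko1 lay among them, so the groups overlapped. Means were 3970 ± 605 and 3250 ± 220 (SD, n = 3), and the log2 difference was 0.28 ± 0.16. With arrays centred on their medians it was -0.12 and with quantile normalization -0.09, so Mt1 has no direction that holds across scalings. In Affymetrix naming the ending _s_at marks probes that match several transcripts, so signal from a close relative of Mt1 cannot be told apart in this set. The second Mt1 probe set, 1451612_at, read between 2.534 and 34.23 over the 6 arrays (20.1 ± 12.4 on knockout and 12.5 ± 8.71 on heterozygous arrays, SD, n = 3). It fell below the filter on level and was not tested.

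Mt2 differed more among the knockout arrays than between the groups. The probe set 1428942_at read 1129, 898.4 and 1640 on the knockout arrays (67, 68, Ko1) and 1347, 1183 and 1169 on the heterozygous ones (75, 76, 81). Ko1 was the highest of the 6 arrays, and knockout 68 and 67 were the lowest. Means were 1220 ± 380 and 1230 ± 99.1 (SD, n = 3), with a log2 difference of -0.05 ± 0.23.

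**Figure D1:**
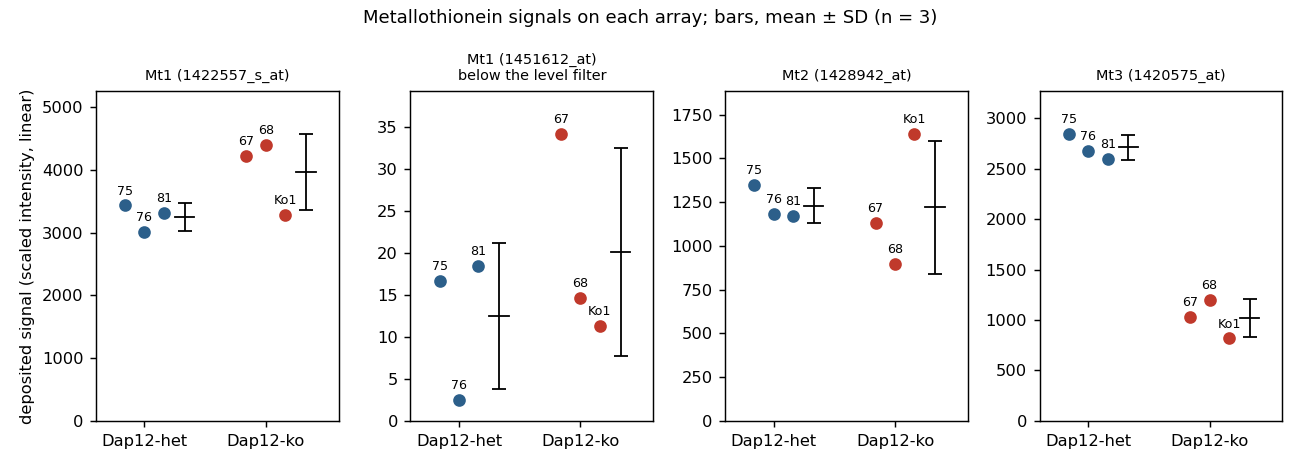
Deposited linear signal (vertical axis, from 0, a separate scale in each panel) of the 4 metallothionein probe sets on each Dap12-het (blue) and Dap12-ko (red) array, with bars for mean ± SD (n = 3). The 3 knockout arrays of Mt3 sit between 817.3 and 1201, below all heterozygous arrays, whereas the groups overlap in the other 3 panels.

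Of the 4 probe sets 3 passed the filter on level, and of these 3 only Mt3 passed an adjusted p of 0.05 in the limma fit with Benjamini-Hochberg adjustment over all 22518 probe sets tested. The share called over all probe sets was 1.98% (0.733% called lower), and the share whose groups did not overlap was 27.4% (12.5% lower). Since the contrast chose the genes, nothing is read from this count. The call on Mt3 was kept with each other scaling, offset, filter and spread model and without knockout Ko1 (-1.27). It was lost when knockout 67 (-1.43), knockout 68 (-1.54), heterozygous 75 (-1.38), heterozygous 76 (-1.42) or heterozygous 81 (-1.44) was left out, with the difference almost the same. In those fits the number of calls over all probe sets was between 0 and 29 (limma; between 2896 and 3887 at an unadjusted p under 0.05). Mt1 passed only in the fit without knockout Ko1 (0.41), and Mt2 did not pass in any fit. These fits reuse the arrays and the contrast that chose the genes. Nothing is therefore read from how often a member passed, Mt3 included.

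The 3 members did not all share an order over the knockout arrays. Mt1 and Mt3 were both highest on 68 and lowest on Ko1, while Mt2 was highest on Ko1 and lowest on 68. Against the heterozygous mean on the log2 scale, knockout 67 stood at 0.38 for Mt1, -0.12 for Mt2 and -1.38 for Mt3. Knockout 68 stood at 0.44, -0.45 and -1.16 for the same genes. Knockout Ko1 stood at 0.01, 0.41 and -1.71. On the deposited scale Ko1 thus had the lowest Mt3 together with the highest Mt2 of the 6 arrays, and 68 had the highest Mt1 together with the lowest Mt2. The gaps between genes within an array do not depend on how that array was scaled as a whole, but these ranks among arrays do.

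**Figure D2:**
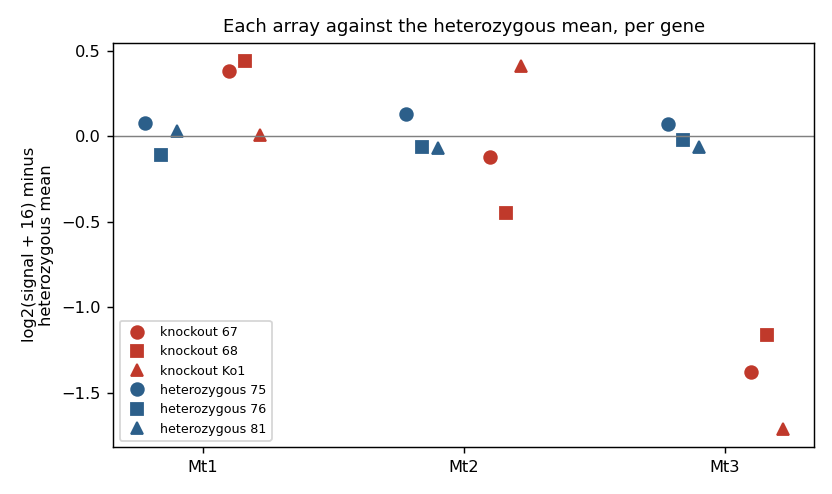
log2(signal + 16) of each array minus the mean of the heterozygous arrays (vertical axis) for Mt1, Mt2 and Mt3, with knockout arrays in red and heterozygous arrays in blue. Knockout 67 and 68 are above 0 for Mt1 and below 0 for Mt2, Ko1 is the other way round for Mt2, and the knockout arrays of Mt3 lie from -1.71 to -1.16.

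Spread within a group is part of the contrast that the genes were chosen with, so it too is given as a description. The SD of the log2 values over the 3 heterozygous arrays was 0.0662 for Mt3, 0.0987 for Mt1 and 0.112 for Mt2, against a median of 0.191 over all probe sets tested. Of these, 9.93% had a smaller SD than Mt3 and 24.6% a smaller one than Mt2, with Mt1 in between. On the knockout arrays the SDs were 0.275 for Mt3, 0.229 for Mt1 and 0.433 for Mt2, against a median of 0.37. The spread was thus wider on the knockout arrays for the 3 genes and for the median probe set.

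The arrays of the 2 groups also differed in measures other than the family. Tyrobp itself read 2.277 to 23.67 on knockout and 68.19 to 77.6 on heterozygous arrays (limma adjusted p = 0.0439), and whether its probes lie in the deleted stretch is not known here. The trimmed mean was 100 on every array, while median signals were 24.68 to 40.41 on knockout and 20.34 to 21.98 on heterozygous arrays. Hybridisation controls, which are bacterial and phage transcripts added to each sample, exceeded all heterozygous arrays on each knockout array in 18 of 18 probe sets, and the poly-A controls did so in 25 of 27. The ratio of 3′ to 5′ signal, a sign of RNA quality, overlapped between the groups for Gapdh (0.702 to 1.21 on knockout and 0.997 to 1.42 on heterozygous arrays) and for Actb (1.76 to 2.33 and 1.59 to 2.12). The part of the added controls' shift in the Mt3 difference was not tested. Among the 1284 probe sets with a heterozygous mean signal of at least 1000, as for all 3 bright members, the median log2 difference was -0.01. These probe sets were picked by the heterozygous mean, which is part of that difference, so nothing is read from this median.

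**Figure D3:**
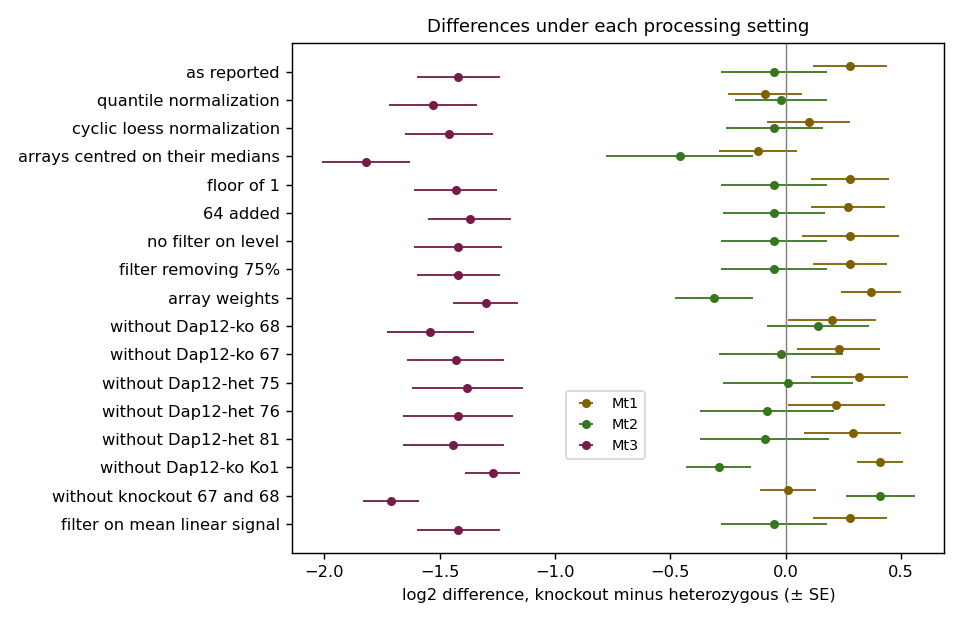
log2 difference, knockout minus heterozygous, with its SE (horizontal axis) for Mt1, Mt2 and Mt3 under the reported setting, the alternatives in scaling, offset, filter and array weights, and with arrays left out (rows). Mt3 lies between -1.82 and -1.27 in all of them, while Mt1 (-0.12 to 0.41) and Mt2 (-0.46 to 0.41) fall on both sides of 0.

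The rest of the metal-handling machinery was compared next, over the same fit and with the brightest tested probe set of each gene. Of 54 genes of zinc, copper and iron handling and metallothionein uptake, 42 were tested. On that probe set a single one rose (Prnp) and 0 fell (limma; 6 at an unadjusted p under 0.05). That is 2.38% of the 42, against 1.37% of all 11467 genes tested (0.366% called higher and 1% lower). Their median log2 difference was -0.05, against -0.09 over all genes. Over all 69 tested probe sets of these genes 2 passed (2.9%, against 1.98% of all probe sets), that of Prnp and a second set of Tfrc, both higher, and the median was 0.10. Groups did not overlap for 13 of the 42 (31%), against 26% of all genes.

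Of 25 genes of zinc transport and sensing 19 were tested, and 0 passed (limma; 1 at an unadjusted p under 0.05), with a median of -0.20 (0.02 over their 29 tested probe sets, of which 0 passed). Mtf1, the zinc sensor that drives Mt1 and Mt2, had a log2 difference of -0.36 ± 0.25 on its brightest probe set (80.8 ± 25 on knockout and 105 ± 4.25 on heterozygous arrays, SD, n = 3; limma adjusted p = 0.442). Its other tested probe sets stood at 0.26 ± 0.27 and 0.44 ± 0.28, so the sets disagreed in sign. Slc30a7, which moves zinc into the Golgi, read 62.53, 123.7 and 83.77 on the knockout arrays (67, 68, Ko1) and 156.6, 145 and 178.8 on the heterozygous ones (75, 76, 81). Its groups did not overlap, and the log2 difference was -0.77 ± 0.25 (limma adjusted p = 0.136; 0.18 ± 0.24 on its other probe set). Slc39a6, a zinc importer of the plasma membrane, was at -0.44 ± 0.20 (adjusted p = 0.25), while its other probe set was at 0.99 ± 0.26. Slc30a3, which loads zinc into synaptic vesicles, was at 0.22 ± 0.24, and Slc30a1, the zinc exporter that Mtf1 induces along with Mt1, at -0.07 ± 0.22 (0.37 ± 0.49 on its other probe set). Mt4 read 1.942 to 25.76 on knockout and 5.202 to 7.898 on heterozygous arrays and was below the filter on level.

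Copper handling genes had a median of 0.18, with 1 of 13 tested past the threshold (7.69%, against 1.37% of all genes). Their median was 0.12 with cyclic loess. With arrays centred on their medians it was -0.22, where the median over all probe sets was -0.40. Prnp, the copper-binding prion protein, read 6453, 5798 and 6190 on the knockout arrays (67, 68, Ko1) and 3849, 3790 and 3674 on the heterozygous ones (75, 76, 81). The groups were well apart, and it rose by 0.70 ± 0.13 in log2 units (limma adjusted p = 0.0412; adjusted p = 0.0896 for 0.87 ± 0.23 on its other probe set). The call was lost with quantile normalization, cyclic loess, median centring, no filter or no trend and without any array except knockout Ko1, with log2 differences from 0.17 to 0.74 over all settings. App, the amyloid precursor protein, which also binds copper, was at 0.53 ± 0.18 (adjusted p = 0.142; 0.44 ± 0.21 on its other probe set), and at -0.09 in the setting that lowered it most.

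Of 13 iron handling genes 9 were tested, and 0 passed on the brightest probe set (limma; 3 at an unadjusted p under 0.05), with a median of -0.01. Tfrc, the transferrin receptor that takes up iron, was at -0.01 ± 0.17 on that set and at 1.78 ± 0.30 on its dimmer one, which passed (limma adjusted p = 0.0326), so its probe sets disagreed. Fth1, the heavy chain of the iron store ferritin, read 14090, 13190 and 7122 on the knockout arrays (67, 68, Ko1) and 5054, 4926 and 4974 on the heterozygous ones (75, 76, 81). All knockout arrays were higher, Ko1 the least, and the log2 difference was 1.14 ± 0.25 (limma adjusted p = 0.0563; 0.09 ± 0.19 on its other probe set). Ireb2, an iron regulatory protein that binds ferritin messenger RNA, was at -0.84 ± 0.26 (adjusted p = 0.122), with no overlap between the groups. Of the receptors that take up metallothionein, Lrp1 was at -0.52 ± 0.26 (adjusted p = 0.294) and Lrp2 was below the filter on level.

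Pathways known to induce Mt1 and Mt2 gave 0 calls among 56 tested genes on the brightest probe set of each (limma; 11 at an unadjusted p under 0.05), against 1.37% of all genes. Over their 116 tested probe sets 2 passed (1.72%, against 1.98% of all probe sets). One was a set of Nr3c1, the glucocorticoid receptor, at 1.52 ± 0.26 (limma adjusted p = 0.0351), whose brightest set was at -0.06 ± 0.24. The other was a set of Nfkbia, an inhibitor of NF-kappa-B, at -1.15 ± 0.19 (adjusted p = 0.0337), whose brightest set was at -0.20 ± 0.17. The median of the 56 was -0.18 (-0.04 over the 116 sets), and groups did not overlap for 12 of the 56 (21.4%, against 26% of all genes). Among 16 glucocorticoid-induced genes (median -0.19) the smallest p-values were those of Pdk4, which restrains glucose oxidation, at -1.01 ± 0.24 (adjusted p = 0.0728), and of the kinase Sgk1, at -1.28 ± 0.32 (adjusted p = 0.0783). Sgk1 read 408.3, 529.8 and 987.5 on the knockout arrays (67, 68, Ko1) and 1766, 1605 and 1134 on the heterozygous ones (75, 76, 81), with no overlap. Among 18 antioxidant genes of the Nrf2 pathway (median 0.02) Keap1, the inhibitor of Nrf2, was at -0.72 ± 0.21 (adjusted p = 0.103; 0.76 ± 0.29 on its other probe set) and Gstm1, a glutathione transferase, at 0.37 ± 0.16 (adjusted p = 0.225; 0.74 ± 0.21 and -0.10 ± 0.20 on its other probe sets).

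The IL-6 and STAT3 list had no common direction across probe sets. On the brightest set of each of the 9 genes tested the log2 differences ran from -0.71 to -0.09, with a median of -0.34 and 0 past the threshold (limma; 2 at an unadjusted p under 0.05). Over their 19 tested probe sets 7 were above 0 and 12 below, from -0.71 to 1.88, with 0 past the threshold. Il6st, the signalling subunit of the interleukin-6 receptor, was at -0.09 ± 0.50 on its brightest set and at 1.88 ± 0.39, 0.02 ± 0.19 and 1.45 ± 0.32 on the others. Stat3 was at -0.21 ± 0.28, with 0.84 ± 0.31 and -0.21 ± 0.20 on the others. On the brightest sets, the median of the 9 against the heterozygous mean was -0.12 on knockout 67, -0.45 on 68 and -0.70 on Ko1. Jak1, the kinase of the interleukin-6 receptor, was at -0.62 ± 0.20 (adjusted p = 0.127), with -0.64 ± 0.21 and 1.22 ± 0.42 on its other probe sets. Vim, the filament vimentin, was at -0.58 ± 0.23 (adjusted p = 0.203), with -0.05 ± 0.29 and 0.57 ± 0.24 on its other probe sets. Of 13 hypoxia genes (median -0.14) Ndrg1 was at -0.87 ± 0.21 (adjusted p = 0.0729), with its other 4 probe sets from -0.43 ± 0.17 to 0.54 ± 0.50. Pdk1, which also restrains glucose oxidation, was at -0.55 ± 0.19 (adjusted p = 0.153), with 0.28 ± 0.24 and 0.08 ± 0.22 on its other probe sets. Without knockout Ko1 there were 14 calls in these lists and 10 among the metal-handling genes, with 5226 over all probe sets (23.2%).

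**Figure D4:**
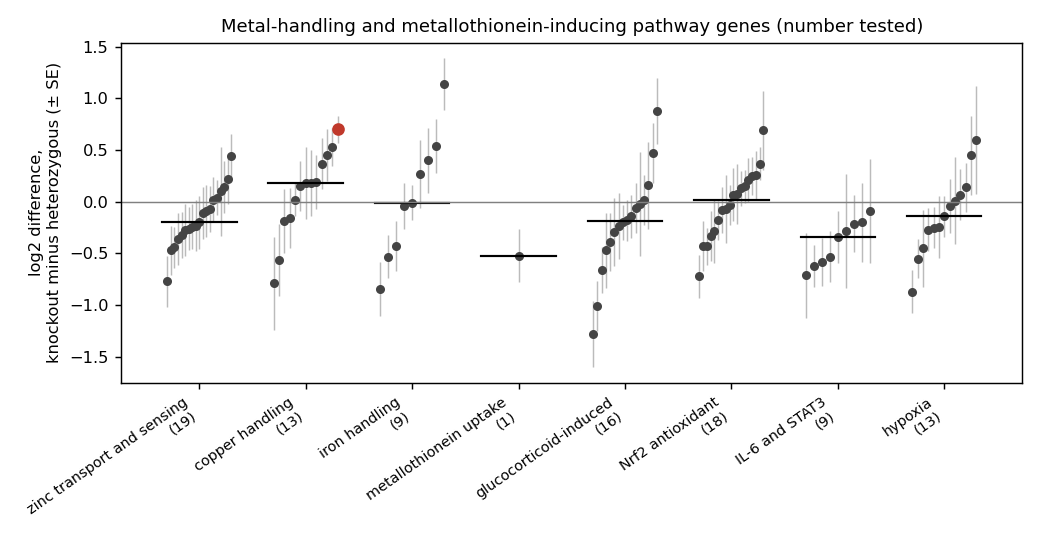
log2 difference, knockout minus heterozygous, with its SE (vertical axis) for the brightest tested probe set of each gene of 4 metal-handling and 4 inducing-pathway lists (horizontal axis, number tested in brackets), with the median of each list as a black line. Prnp, in red, is the single gene past the threshold on these probe sets; other probe sets of the same genes are not drawn, and 7 of the 19 sets of the IL-6 and STAT3 list are above 0.

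Over the 6 arrays, the probe sets whose log2 values ran most like Mt3 were those of Man2c1, a mannosidase (Pearson r = 0.999), Ldhb, a lactate dehydrogenase subunit (0.997), Ugcg, which makes glucosylceramide (0.997), Mtch1 (0.996) and Arid4b (0.995). Ldhb read 1626, 1868 and 1502 on the knockout arrays (67, 68, Ko1) and 3010, 2938 and 3008 on the heterozygous ones (75, 76, 81). Like Mt3 it was lowest on Ko1 and highest, among knockout arrays, on 68. Of 19921 other probe sets with 1 symbol, 558 (2.8%) had an r of at least 0.9 with Mt3. With quantile normalization the r of the 5 was 0.967 to 0.998. For Mt1 the closest were Slc2a12, a sugar transporter, Acy1 and Sgf29 (each 0.994) and Cks2 and Ubl5 (each 0.993), and with quantile normalization their r was 0.412 to 0.534. These r values describe 6 points that share the group difference and one scaling per array.

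The neighbours of the cluster on chromosome 8 lay closer to 0 than Mt3 in each tested case. Mt3 was chosen with its difference known, so nothing is read from this comparison. Of the 20 nearest protein-coding genes, 10 on each side, 12 were tested and 0 passed (limma; 3 at an unadjusted p under 0.05). Their log2 differences ran from -0.59 to 0.82 with a median of -0.10. Groups did not overlap, higher on knockout arrays, for 3 of the 12, against 9.93% of all genes tested. They did not overlap, lower, for 2 of the 12, against 16% of all genes tested.

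Astrocytes are a main source of metallothionein in the brain, and their markers did not move as a block. On the brightest probe set of each of 12 markers tested 1 rose, Glul, the glutamine synthetase, and 0 fell, against 1.37% of all genes. Glul was at 1.13 ± 0.23 (limma adjusted p = 0.0485; up to 0.207 over the settings) and at 0.42 ± 0.32 on its other probe set (adjusted p = 0.496). Of all 34 tested probe sets 2 passed (5.88%, against 1.98% of all probe sets). The second was one of Fgfr3, a receptor for fibroblast growth factors, at 1.84 ± 0.34 (limma adjusted p = 0.0391), whose brightest set was at -0.23 ± 0.19. The median difference was -0.11 over the brightest sets and 0.35 over the 34, and 3 of the 12 brightest sets did not overlap, all higher on knockout arrays, against 9.93% of all genes. By array the median of the 12 stood at -0.17 on knockout 67, -0.19 on 68 and 0.22 on Ko1 against the heterozygous mean, so Ko1, with the lowest Mt3, had the highest of these medians. The summed signal of the 12, to which bright markers add most, was 20450 to 21910 on knockout and 14550 to 18100 on heterozygous arrays. In RNA of whole tissue, fewer cells of a type and less RNA per cell cannot be told apart.

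**Figure D5:**
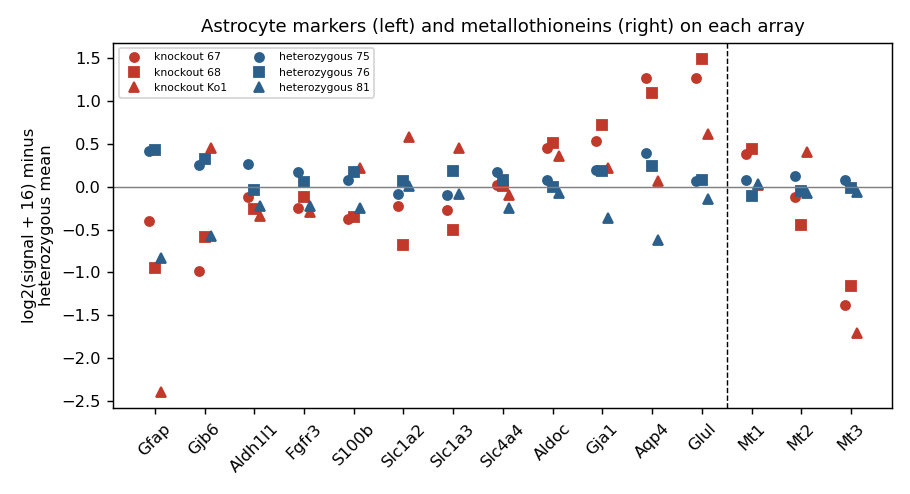
log2(signal + 16) of each array minus the heterozygous mean (vertical axis) for 12 astrocyte markers, ordered by their group difference, and for Mt1, Mt2 and Mt3 right of the dashed line; knockout arrays are red and heterozygous arrays blue. The markers spread to both sides of 0, and the 3 knockout arrays of Mt3 lie together from -1.71 to -1.16.

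Summed signals of cell type and region markers differed between arrays of the same group. A linear sum is set mainly by its brightest markers. The summed signal of choroid plexus markers was 16230, 17850 and 461.4 on the knockout arrays (67, 68, Ko1) and 671 to 3577 on heterozygous arrays. It was mostly Ttr, at 16070, 17640 and 401.6 on the knockout arrays. Kl, a dim marker of the same list, read 50.9, 73.33 and 26.6 on knockout and 14.45 to 18.29 on heterozygous arrays. The summed signal of oligodendrocyte markers was 59770, 45010 and 23150 on knockout (67, 68, Ko1) and 16670 to 16900 on heterozygous arrays. Mbp alone read 36160, 24720 and 11660 on the knockout arrays. By log2 difference on the brightest probe sets, 4 oligodendrocyte markers were above 0 and 1 below (Mag, -0.05 ± 0.38). Of these 5 only Mbp passed, at 1.85 ± 0.35 (limma adjusted p = 0.04), which is 20%, against 1.37% of all genes. Over their 17 tested probe sets 14 were above 0 and 3 below. Of the 17, 6 passed (35.3%, against 1.98% of all probe sets), all higher and all of Mbp or Mobp. An added control, the 3′ probe set of the Dap spike, ran in the same order as the oligodendrocyte sum. It read 45160, 26910 and 15420 on knockout and 7382 to 7669 on heterozygous arrays. Not all spikes shared this order within the knockout group. The middle probe set of the Lys spike read 8417, 7420 and 13430 on knockout and 5083 to 6006 on heterozygous arrays. Tissue make-up and a difference between arrays in signal cannot be told apart here. Striatal markers summed to 339.2, 516.2 and 4265 on the knockout arrays (67, 68, Ko1) and to 1334, 807.6 and 4174 on the heterozygous ones (75, 76, 81). Neuronal markers summed to 13290 to 15760 on knockout and 9905 to 10490 on heterozygous arrays, and microglial markers to 2311 to 2668 and 1603 to 1972. By log2 difference on the brightest probe sets, 4 neuronal markers were above 0 and 1 below (Tubb3, -0.44 ± 0.17), and 0 passed. Over their 14 tested probe sets 9 were above 0 and 5 below, and 4 passed (28.6%, against 1.98% of all probe sets). These 4 were higher sets of Syt1 and Map2, whose brightest sets stood at 0.27 ± 0.19 and 0.06 ± 0.18, so their probe sets disagreed. Of the microglial markers 5 were above 0 and 2 below. All 4 markers of midbrain dopamine neurons, all 5 of hypothalamus and all 4 of thalamus passed the filter on level. Of 4 markers of cortex and hippocampus, 3 had a probe set with a single gene symbol, and 1 passed the filter. Mt1 was higher on the arrays with a high choroid plexus sum, knockout 67 and 68, and Mt2 was not. Mt3 read 817.3 on Ko1, where the choroid plexus sum was low and the striatal sum high, and 1030 and 1201 on 67 and 68. The part of tissue make-up in the Mt1, Mt2 and Mt3 values was not tested.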

How the data were processed

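The authors' deposited values are linear signal intensities of probe sets from GCOS, the Affymetrix scanner software, per the submitters' processing notes; its version, algorithm and detection calls are not given in the sources used here. Equal trimmed means show that each array was scaled as a whole, and this was kept. Genes were named from the 34945 probe sets with 1 symbol in the platform annotation (932 had several). Signals were taken as log2(signal + 16), which understates changes of dim probe sets. The 64 controls were removed, and the 22518 probe sets with a mean log2 value above the median were tested with limma 3.58.1 in R 4.3.3 (lmFit, eBayes with trend, two-sided, Benjamini-Hochberg, threshold 0.05) after a check on simulated data. The number of arrays, 3 per group, limits precision. The members and gene lists were chosen with earlier results of these data known. Named were the members, Mt4, Mtf1, Tyrobp, called list genes, the 2 smallest p per list, and the 5 genes most like Mt1 and Mt3. Slc30a1, Slc30a3, Lrp2, Glul, Il6st and Stat3 were added as list members after their values were seen. So were the cell type markers Ttr, Kl, Mbp, Mobp, Mag, Tubb3, Syt1 and Map2. Sequences are RefSeq's, on GRCm38.p6, and 4 of 4 metallothionein genes matched by symbol. The filter was first run on the mean linear signal and was changed to the mean log2 value after those calls had been seen. Alternatives covered scaling, offset, filter, spread model, array weights and each array left out.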

Additional observations from a re-analysis of the deposited data

How the results depend on the processing

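Mt3 kept its direction in every alternative run, at -1.82 with arrays centred on their medians, a setting where the median over all probe sets was -0.40, at -1.71 without knockout 67 and 68 (which leaves 1 knockout array, assumed to vary like the others, and was chosen after seeing the data), and between -1.54 and -1.27 with each array left out in turn. Mt1 was -0.09 with quantile normalization, 0.10 with cyclic loess, -0.12 with median centring and 0.01 without knockout 67 and 68, and between 0.20 and 0.41 with each array left out. Mt2 was -0.46 with median centring, 0.41 without knockout 67 and 68, and between -0.29 and 0.14 with each array left out. The 445 calls over all probe sets (280 higher, 165 lower) became 126 with quantile normalization, 184 with cyclic loess, 124 without a filter, 180 without a trend, 4786 with array weights and 0 to 5226 with each array left out. With the filter on the mean linear signal, the form first run, they were 466, of which 441 were among the 445, and Mt3, Mt1 and Mt2 kept their values. With median centring they were 100 higher and 481 lower. Calls among metal-handling genes, 1 as reported, were 0 with quantile normalization, cyclic loess, median centring, no filter or no trend (limma; 3, 5, 14, 7 and 6 at an unadjusted p under 0.05). They were 2 with every tested probe set of a gene counted, added after seeing the data, 8 with array weights, 4 without knockout 67 and 68, and 0 to 10 with each array left out. Calls among genes of inducing pathways, 0 as reported (limma; 11 at an unadjusted p under 0.05), were 2 with every tested probe set counted, 2 with median centring, 13 with array weights, 4 without knockout 67 and 68, and 0 to 14 with each array left out. The lowest r of the 5 genes most like Mt1 was 0.412 with quantile normalization. The cause of these moves was not tested. Dim probe sets, such as the second of Mt1 and that of Mt4, are limited by signal over background.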
